A study of Mus musculus with 3 samples.

Results

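Mast cells and basophils were described in cell suspensions from mouse quadriceps muscle in which a surgical defect had been filled with particles of the polyester polycaprolactone. They were chosen by rule: a barcode with at least 500 UMIs (unique molecular identifiers, 1 per captured molecule) and a mitochondrial share under 20% had to have no UMI of Pdgfra, fewer than 5 UMIs of C1qa, C1qb and C1qc together per 10000, and either at least 5 UMIs of Cpa3 or at least 3 of Mcpt8. Of 19003 barcodes that passed the depth and mitochondrial filters, out of 19707 in all, 53 were members, with 18, 22 and 13 in replicates 1, 2 and 3. Members with at least 3 UMIs of Cma1 are called mast cells here (38: 13, 16 and 9), those with at least 3 UMIs of Mcpt8 and none of Cma1 basophils (10: 2, 5 and 3), and the other 5 the remaining members (3, 1 and 1).

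The labels give 1 group of 3 libraries, all from wildtype C57BL/6 mice with volumetric muscle loss (VML) treated with PCL and taken at week 6, with no untreated, sham or time control. The protocols in the labels describe a removal of dead cells, after which leukocytes carrying CD45 were separated from the rest with magnetic beads and the fractions were mixed back at equal parts, so that the share of leukocytes was set by the remix. RNA was captured with the 10x Genomics 3′ chemistry. Nothing in the labels ties each replicate to its own animal, so the p-values below measure only the spread between these libraries, which may be technical. Every comparison was between classes of cells within these libraries.

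Mast cells live in connective tissue for long periods, need the receptor Kit for survival, and store histamine, heparin and proteases in granules that are released when IgE bound to its receptor meets antigen. Basophils arise in bone marrow, circulate, are short-lived, carry the same IgE receptor, and are known as a rapid source of interleukin 4. In mice, connective tissue mast cells are known for the chymase Mcpt4, the elastase-like chymase Cma1, the tryptase Tpsb2 and carboxypeptidase A3 (Cpa3), mucosal mast cells for Mcpt1 and Mcpt2, and basophils for Mcpt8 and Prss34.

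The 38 mast cells had a median of 4736 UMIs per cell (720 to 27085) and a median mitochondrial share of 5.01%, and the 10 basophils 8291 UMIs (5753 to 38218) and 1.90%. Other leukocytes, defined as the 5216 barcodes with at least 1 UMI of Ptprc (CD45), none of Pdgfra and no membership, had medians between 9647 and 13295 UMIs by library. The class totals that the levels rest on were 256673 UMIs in mast cells, 126429 in basophils and 79988055 in other leukocytes. Library pairs shared 13, 13 and 10 barcode sequences. Of the 53 members, 9 carried 25 or more UMIs per 10000 of the markers of macrophages, neutrophils, dendritic cells, or T and NK cells: 6 mast cells, 2 basophils and 1 remaining member, at 43.4 to 385 per 10000, against at most 15.2 in the other 44. A replicate 1 basophil among them supplied 82.0% of that library's basophil UMIs (38218 of 46580), with 689 UMIs of the macrophage and neutrophil lysozyme gene Lyz2, and another, a mast cell of replicate 2, held 407 of the 437 UMIs of the neutrophil gene S100a8 found in mast cells. Counts of calls without these 9 barcodes are given beside the main counts.

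Members made up 0.280% ± 0.020 of the barcodes that passed (SD, n = 3 libraries; 0.303%, 0.266% and 0.271%). By library, the exact binomial 95% intervals ran from 0.180 to 0.479% in replicate 1 and from 0.167 to 0.402% in replicate 2. Mast cells were 0.200% ± 0.017 and basophils 0.052% ± 0.016 of passing barcodes. Against leukocytes, members and other leukocytes counted together, the share was 1.08% ± 0.508 (0.775%, 1.67% and 0.799%), and these denominators depend on the bead separation. The rule's threshold cut through a run of similar barcodes. In 4 members Cpa3 stood at 5 or 6 UMIs and in 3 members Mcpt8 stood at 3, while 11 barcodes failed with 3 or 4 UMIs of Cpa3 or 2 of Mcpt8. Each of the 11 had UMIs of Cd200r3 (2 to 24), Hdc (23 to 86), Il6 (8 to 86), Ccl4 (13 to 338) and Cyp11a1 (6 to 50), and none of Cma1, Mcpt4, Tpsb2 or Kit, a pattern that the basophils below also had. Because 9 of the 11 carried Ptprc they were counted with the other leukocytes, where they supplied 60.0% of that class's Ms4a2 UMIs (36 of 60), 52.3% of its Fcer1a (23 of 44), 51.9% of its Cyp11a1, 40.3% of its Gata2 and 19.1% of its Il6. The levels of other leukocytes below include these barcodes. Pdgfra kept 3 barcodes out, the C1q genes 2 and the mitochondrial limit 1.

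**Figure D1:**
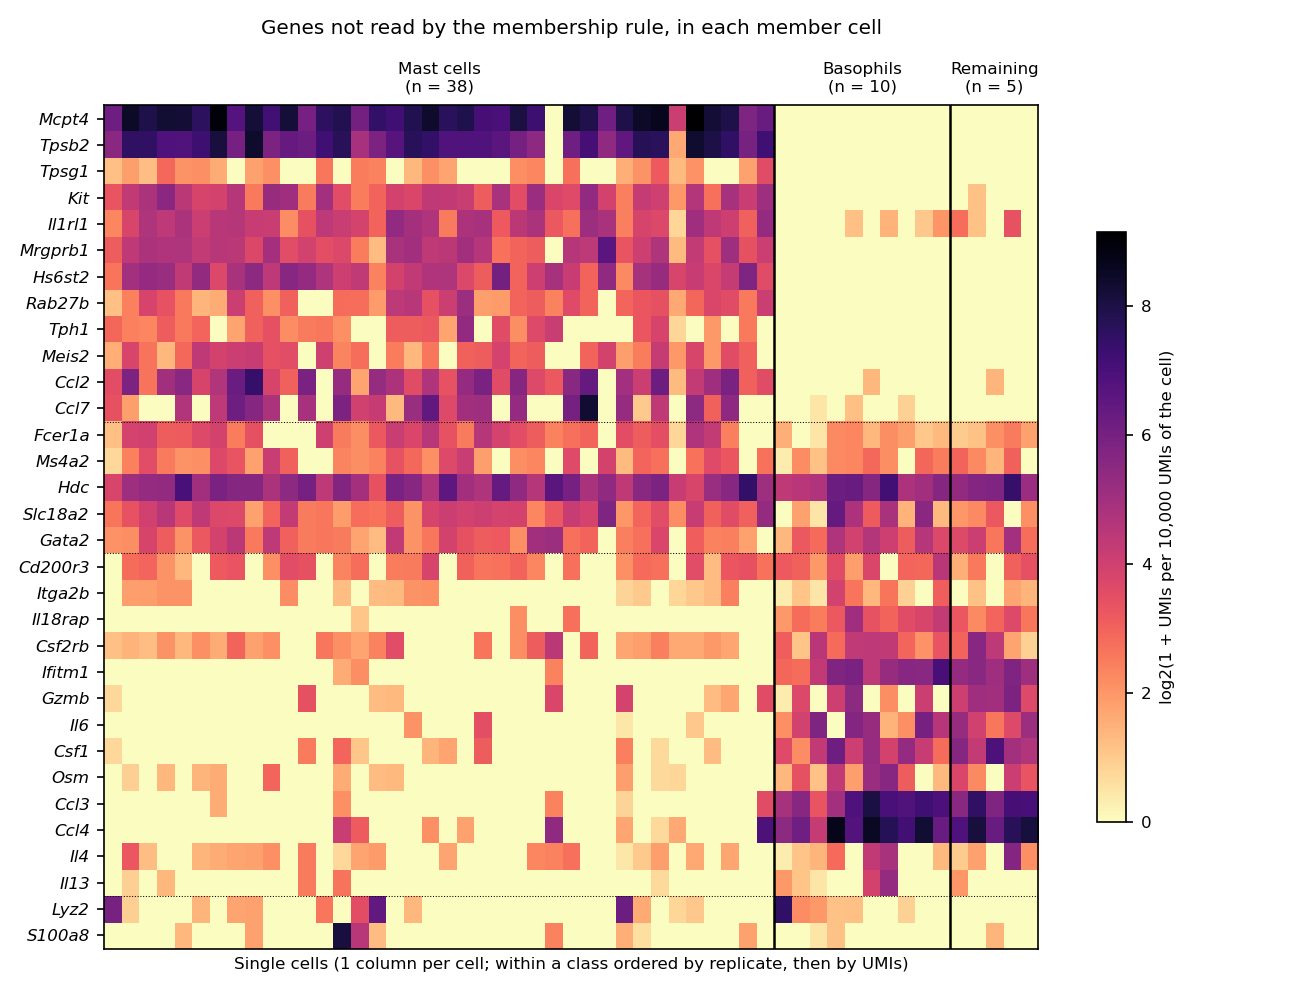
Each column is 1 of the 53 members (38 mast cells, 10 basophils and 5 remaining members) and each row a gene that the rule did not read, coloured by log2(1 + UMIs per 10,000 UMIs of the cell). Mcpt4, Tpsb2 and Kit fill the mast cell columns and are at 0 in basophils, Ccl3 and Ccl4 fill the basophil and remaining columns, and Hdc is present in all 53 cells.

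The genes that chose the members are given as values only. Cpa3, a zinc protease of the secretory granule, stood at 13561, 10998 and 15298 CPM in the mast cells of replicates 1, 2 and 3, against 172, 287 and 399.5 in basophils and 2.30, 1.10 and 2.52 in other leukocytes. CPM here is the number of UMIs of a gene for every 1000000 UMIs of that class in that library, and values in a row of 3 are those of replicates 1, 2 and 3. Cma1 stood at 17144, 16090.1 and 20938 CPM in mast cells and at 0 in basophils, by definition. Mcpt8 stood at 13.1, 207 and 0 CPM in mast cells, where 16 of the 17 UMIs came from 1 cell of replicate 2, against 301, 649.9 and 436 in basophils.

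Marker genes that the rule did not read went with the mast cell label, while those of basophils were mixed. Mcpt4 and Tpsb2 were both present in 37 of 38 mast cells, Kit in 38 of 38 and the IgE receptor genes Fcer1a or Ms4a2 in 36 of 38. All 10 basophils had Fcer1a or Ms4a2 and 9 had Cd200r3, a receptor of the CD200 family used to mark mouse basophils, but so had 28 of 38 mast cells. Itga2 (CD49b), also used as a basophil marker in mice, was found in 14 of 38 mast cells and 4 of 10 basophils. Prss34, the other protease known from mouse basophils, had no UMI in the 10 basophils or the 5 remaining members. It was found in 7 of 38 mast cells, at 7, 23 and 56 UMIs in replicates 1, 2 and 3, with 65.1% of its UMIs in 1 cell of replicate 3 that also held 677 UMIs of Mcpt4. The 5 remaining members all had Hdc (32 to 72 UMIs), Il6 (3 to 41), Ccl4 (46 to 333), Ifitm1 (20 to 40) and Gzmb (14 to 26), none of Mcpt4 or Tpsb2, and 1 UMI of Kit among them, genes that the basophils also had or lacked. A remaining member of replicate 3 also had 11 UMIs of Ncr1 and 13 of Gzma, genes of natural killer cells.

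Mast cells were compared with other leukocytes by edgeR's quasi-likelihood test on UMIs summed per class and library, with at least 10 cells required per class and library, so that replicates 1 and 2 gave mast cell sums and the 9 mast cells of replicate 3 were left out. No library had 10 basophils, so basophils had no such test. A second fit, added after these counts had been seen, took all 3 libraries of mast cells, basophils and other leukocytes, and every basophil value below comes from it. Its basophil sums hold 2, 5 and 3 cells. In both fits a call needed an adjusted p under 0.05 (Benjamini-Hochberg, over all genes tested) and a log2 difference of 1 or more in size. The tested genes exclude those of the rule and Ptprc, but they were measured in the same cells that the rule's genes chose, so a call says that a gene goes with those genes in these cells. The expression filter also kept genes found in 1 class alone, which could hardly be called lower there. Counts of calls within the gene lists below are therefore descriptions.

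Mast cells against basophils, 199 of 1859 genes were higher (10.7%) and 139 lower (7.48%), with 586 genes at an unadjusted p under 0.05. Without replicate 2, which holds 5 of the 10 basophils, 13 were higher and 2 lower. Of the 67 genes named here that were called in this comparison, 11 kept their call without replicate 2: Mcpt4, Tpsb2, Kit, Mrgprb1, Hs6st2, Mctp1, Tiam2, Sgcd, Ccl2 and Ccl7 on the higher side and Ccl3 on the lower. Without the 9 barcodes that carried markers of another class, 248 were higher and 203 lower. Against other leukocytes, mast cells had 153 of 14102 genes higher (1.08%) and 53 lower (0.376%), or 206 in either direction (1.46%). Without the 9 barcodes 399 were higher and 1055 lower, so the balance of higher and lower calls turned round. In that comparison the median gene stood at a log2 difference of -0.91, and with DESeq2's size factors in edgeR (RLE), which moved the median to -0.75, 120 were higher and 6 lower. The number of lower genes depended on that scaling, and no named gene that was called changed direction with it. Basophils against other leukocytes had 165 of 1859 genes higher (8.88%) and 89 lower (4.79%), with 24 higher and 3 lower without replicate 2, 80 and 15 without replicate 3, 251 and 191 without replicate 1, and 237 and 413 without the 9 barcodes.

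The proteases stood far apart between the classes. Mcpt4, the main chymase of connective tissue mast cells, stood at 23342, 18778 and 27824 CPM in mast cells of the 3 libraries, and no UMI was found among 126429 in basophils, a level at least 1001-fold higher when basophils are set to 3 counts over the group. Tpsb2, a beta-tryptase, stood at 13704, 11825 and 15337 in mast cells and at 0 in basophils, at least 581-fold higher. All mast cell libraries were far above all basophil libraries for both genes. Both were also higher in mast cells than in other leukocytes, by 13.79 ± 0.86 log2 for Mcpt4 (edgeR adjusted p = 0.00544) and 13.62 ± 0.59 for Tpsb2 (adjusted p = 0.00236; SE, higher in 2 of 2 libraries tested and in 3 of 3 by level). In fibroblasts, which should lack the gene, 0.650% of cells had a UMI of Mcpt4 at median depths of 26635 to 34440 UMIs per cell by library, and 0.0621% after thinning each cell to 1500 UMIs. Thinned in the same way, 97.0% of mast cells had one.

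Other tryptases and chymases had few UMIs or none. The tryptase Tpsab1 had 235, 310.2 and 117 CPM in mast cells, in 19 of 38 cells, and none in basophils. The tryptase Tpsg1 had 235, 181 and 311 CPM in mast cells, in 25 of 38 cells, and none in basophils. Cathepsin G (Ctsg) was found in 10 of 38 mast cells, with 6, 23 and 23 UMIs by library, and in 2 of 10 basophils. The mucosal chymase genes were missing: Mcpt1 had 0 UMIs and Mcpt2 had 1 among the 256673 UMIs of mast cells, where 0 UMIs allow up to 11.7 CPM, and Mcpt9 had 0. Of the 7 proteases of the list that were tested against other leukocytes and not read by the rule, 6 were higher in mast cells (Mcpt4, Tpsb2, Tpsab1, Tpsg1, Prss34 and Ctsg) and none lower, against 1.08% and 0.376% of all genes tested. Ctsg, with 7 UMIs in other leukocytes, was tested through its mast cell counts and could hardly have been called lower. The count for this list is therefore a description. These families hold near-identical copies, and counting could have split reads between Tpsb2 and Tpsab1, Cma1 and Cma2, or Mcpt1, Mcpt2, Mcpt4 and Mcpt9.

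The chymases and several granzymes lie in 1 row of 15 protein-coding genes on mouse chromosome 14, in the order Cma1, Cma2, Mcpt1, Mcpt2, Mcpt9, Mcpt4, Mcpt8, Ctsg, Gzme, Gzmd, Gzmg, Gzmn, Gzmf, Gzmc and Gzmb in the RefSeq annotation of GRCm38.p6. The rule read Cma1 and Mcpt8, so their levels here are a description. Mast cells had over 10 UMIs of 6 genes: Cma1, Cma2 (15 UMIs), Mcpt4, Mcpt8, Ctsg (52 UMIs) and Gzmb (49 UMIs). Basophils had over 10 UMIs of 3: Mcpt8 (60 UMIs), Gzmc (39) and Gzmb (75). Mcpt4, the neighbour of Mcpt8 in the row and not read by the rule, had no UMI in basophils. Granzyme B, a serine protease better known from cytotoxic lymphocytes, stood at 39.2, 64.6 and 399 CPM in mast cells, where 75.5% of its UMIs came from 1 cell that also carried markers of another class, against 236, 937 and 545 in basophils and 4.97, 13.2 and 3.95 in other leukocytes. Basophils were higher than other leukocytes for Gzmb by 6.16 ± 0.81 log2 (edgeR adjusted p = 0.00186, higher in 3 of 3 libraries), and 6 of 10 basophils held its UMIs. Gzmc had no UMI in mast cells, at least 26.4-fold lower than in basophils, where 4 of 10 cells had it and 1 cell held 61.5% of its UMIs.

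**Figure D2:**
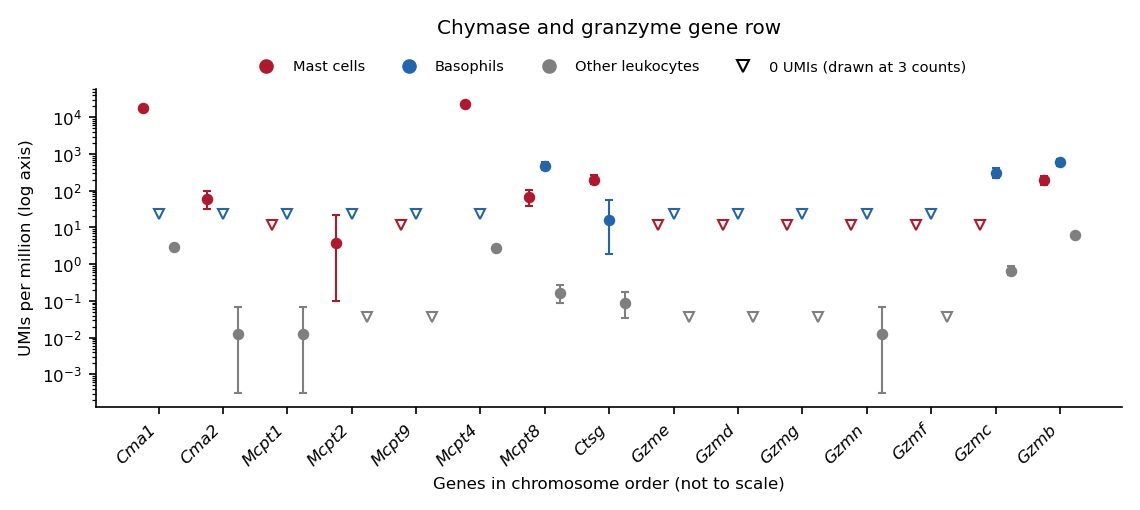
CPM (log axis) of the 15 genes of the chymase and granzyme row in chromosome order, for mast cells, basophils and other leukocytes, with all libraries of a class summed. Filled points have exact Poisson 95% intervals, which cover counting error only, and open triangles mark genes with 0 UMIs at the level of 3 counts. Cma1 and Mcpt4 are high in mast cells and Mcpt8, Gzmc and Gzmb in basophils. Mcpt4 and Mcpt8 are neighbours, and Mcpt1, Mcpt9, Gzme, Gzmd, Gzmg, Gzmn and Gzmf are at 0 UMIs in both mast cells and basophils.

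The starts of Cpa3, Cma1 and Mcpt8, which the rule read, are shown beside those of Mcpt4, found in mast cells and in no basophil, and of the IgE receptor gene Ms4a2, found in both classes. Each sequence is the 250 bases before the annotated start in RefSeq (GRCm38.p6, minus strand, written 5′ to 3′ along the gene), with GATAA or its reverse complement TTATC, letters read by GATA factors such as Gata2, in capitals. The motif was searched on both strands of those 250 bases, and 22.6% of 32851 promoters of the same length in the table held it (7418).
Cpa3 (chr3:20242182-20242431): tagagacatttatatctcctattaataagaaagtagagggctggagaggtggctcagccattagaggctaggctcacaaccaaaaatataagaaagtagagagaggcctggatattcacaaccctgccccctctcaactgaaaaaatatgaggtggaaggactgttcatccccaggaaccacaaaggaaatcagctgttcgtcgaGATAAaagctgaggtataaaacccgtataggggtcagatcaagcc
Cma1 (chr14:55944676-55944925): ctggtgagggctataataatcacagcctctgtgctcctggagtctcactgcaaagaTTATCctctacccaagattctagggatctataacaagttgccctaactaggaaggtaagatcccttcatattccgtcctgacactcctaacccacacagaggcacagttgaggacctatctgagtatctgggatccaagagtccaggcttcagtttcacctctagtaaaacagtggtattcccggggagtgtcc
Mcpt4 (chr14:56062311-56062560): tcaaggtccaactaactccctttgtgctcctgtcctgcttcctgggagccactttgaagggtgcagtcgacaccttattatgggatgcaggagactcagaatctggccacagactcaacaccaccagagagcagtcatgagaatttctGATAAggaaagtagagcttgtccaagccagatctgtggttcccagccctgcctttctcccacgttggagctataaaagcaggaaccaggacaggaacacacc
Mcpt8 (chr14:56085198-56085447): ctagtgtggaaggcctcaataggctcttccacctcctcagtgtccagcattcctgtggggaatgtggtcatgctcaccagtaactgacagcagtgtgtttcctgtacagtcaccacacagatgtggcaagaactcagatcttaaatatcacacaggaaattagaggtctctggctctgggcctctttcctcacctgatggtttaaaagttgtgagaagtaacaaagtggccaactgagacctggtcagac
Ms4a2 (chr19:11623720-11623969): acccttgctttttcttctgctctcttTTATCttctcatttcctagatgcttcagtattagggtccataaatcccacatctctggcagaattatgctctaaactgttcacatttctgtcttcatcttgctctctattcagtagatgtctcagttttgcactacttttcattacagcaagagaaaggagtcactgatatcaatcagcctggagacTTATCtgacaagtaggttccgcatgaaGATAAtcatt
Cpa3, Cma1 and Mcpt4 had 1 match each and Ms4a2 had 3 (1 as GATAA, 2 as TTATC), while these letters are not in the window of Mcpt8. A match is a description of the sequence and no sign of binding.

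The IgE receptor was found in both classes, with more of its alpha chain in mast cells. Fcer1a, the chain that binds IgE, stood at 811, 982 and 953 CPM in the mast cells of the 3 libraries, against 150.3, 191 and 182 in basophils, with no overlap, and at 0.466, 1.29 and 0.200 in other leukocytes. Mast cells were higher than basophils by 2.68 ± 0.51 log2 (edgeR adjusted p = 0.00751; higher in 3 of 3 libraries), a call lost without replicate 2, with the direction kept. Ms4a2, the signalling beta chain, stood at 510.0, 543 and 428 CPM in mast cells and 85.9, 287 and 327 in basophils, a difference of 1.5 ± 0.77 log2 that was not called (adjusted p = 0.224). Against other leukocytes, mast cells were higher by 9.90 ± 0.44 log2 for Fcer1a (edgeR adjusted p = 0.00242) and 8.59 ± 0.64 for Ms4a2 (adjusted p = 0.00792). Basophils were higher than other leukocytes by 8.14 ± 0.65 log2 for Fcer1a (edgeR adjusted p = 3.70e-04) and 8.10 ± 0.93 for Ms4a2 (adjusted p = 0.00104), and these comparisons share the other leukocytes. Fcer1g, the gamma chain that many leukocytes use for other Fc receptors, averaged 1343 ± 80.8 CPM in mast cells, 974 ± 257 in basophils and 1094 ± 51.8 in other leukocytes (mean ± SD, n = 3 libraries), with no call between mast cells and basophils (edgeR adjusted p = 0.153).

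Of 11 genes of the IgE list tested between the classes, 2 were higher in mast cells than in basophils and none lower, against 10.7% higher and 7.48% lower over all genes tested, so the count of calls is near the background. The list's median log2 difference was 0.69, against 0.09 over all genes tested. Beside Fcer1a, the call was for Inpp5d, the phosphatase SHIP1 that limits signalling from the receptor, at 510.0, 646 and 496 CPM in mast cells and 129, 134 and 36.3 in basophils (2.61 ± 0.41 log2, edgeR adjusted p = 0.00373). The kinases Lyn, Fyn and Syk, the adaptors Lat2, Lcp2 and Gab2, and the kinase Btk were detected in both classes. For Syk, means were 216 ± 64.7 in mast cells, 158 ± 161 in basophils and 473 ± 3.49 in other leukocytes, and the basophil value of replicate 3 was 0.

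Histamine synthesis and amine storage were common to both classes. Hdc, histidine decarboxylase, the only enzyme that makes histamine, stood at 4185, 4419.9 and 3812 CPM in mast cells and 2018, 5562 and 3341 in basophils, ranges that overlap, against 307, 309.8 and 136 in other leukocytes. It was present in all 53 members. Mast cells were higher than other leukocytes by 3.55 ± 0.27 log2 (edgeR adjusted p = 0.00797) and basophils by 3.83 ± 0.48 (adjusted p = 0.00143), while mast cells and basophils differed by 0.44 ± 0.43 (adjusted p = 0.523). Other leukocytes were not free of it, since 29.3% of them had a UMI, against 4.01% of fibroblasts. Slc18a2, the vesicular transporter that loads histamine and serotonin into granules, stood at 1098, 879 and 768 in mast cells and 42.9, 2084 and 1598 in basophils, where 67 of the 155 UMIs came from 1 cell and the deepest cell of replicate 1 had none. Other leukocytes had 1.37, 5.70 and 1.32 CPM of it.

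Tph1, the tryptophan hydroxylase that starts serotonin synthesis, stood at 523, 646 and 418 CPM in mast cells, in 27 of 38 cells, and had no UMI in basophils, at least 21.8-fold higher. The amine-degrading oxidase Maob was found at 340.0, 246 and 359.8 CPM in mast cells and in no basophil. Among genes of heparan chains, Ext1, Ndst2 and Hs6st2 were higher in mast cells, and the 3-O-sulfotransferase Hs3st1 was not called (log2 difference -0.70 ± 0.53, edgeR adjusted p = 0.413). Ext1, which builds the chain, stood at 3256, 4601 and 3384 in mast cells and 301, 669 and 109 in basophils (3.67 ± 0.47 log2, edgeR adjusted p = 0.00229). Ndst2, known in mice to be needed for heparin in mast cells, stood at 379, 271 and 272 in mast cells and 21.5, 38.2 and 0 in basophils (3.92 ± 0.64 log2, adjusted p = 0.00386). Hs6st2, a 6-O-sulfotransferase, was present in 38 of 38 mast cells at 2615, 1822 and 1935 CPM and in no basophil, at least 88.7-fold higher. Serglycin (Srgn), the proteoglycan core that carries heparin in mast cells, was found in all 53 members, at 3741 ± 1276 in mast cells and 5524 ± 1338 in basophils (SD, n = 3), with no call between them (edgeR adjusted p = 0.511).

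Rab27b and Rab27a encode small GTPases that dock secretory granules. Rab27b stood at 536, 1034 and 759 CPM in mast cells and had no UMI in basophils, at least 32.7-fold higher. Rab27a had 2, 0 and 3 UMIs in the mast cells of the 3 libraries and 0, 4 and 9 in basophils, too few to be tested. In the list of histamine, serotonin and granule genes, 6 of 13 tested were higher in mast cells than in basophils (Tph1, Ndst2, Ext1, Rab27b, Maob and Hs6st2) and none lower, against 10.7% and 7.48% of all genes tested, with a median log2 difference of 1.21 against 0.09. Tph1, Rab27b, Maob and Hs6st2 had no UMI in basophils, so they could only be called higher in mast cells. The counts and medians of this list, here and against other leukocytes, are therefore a description. Against other leukocytes, 8 of 18 were higher and none lower (the same 6, Hdc and Slc18a2), against 1.08% and 0.376% of all genes tested, with a median of 0.67 beside -0.91 over all genes tested.

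**Figure D3:**
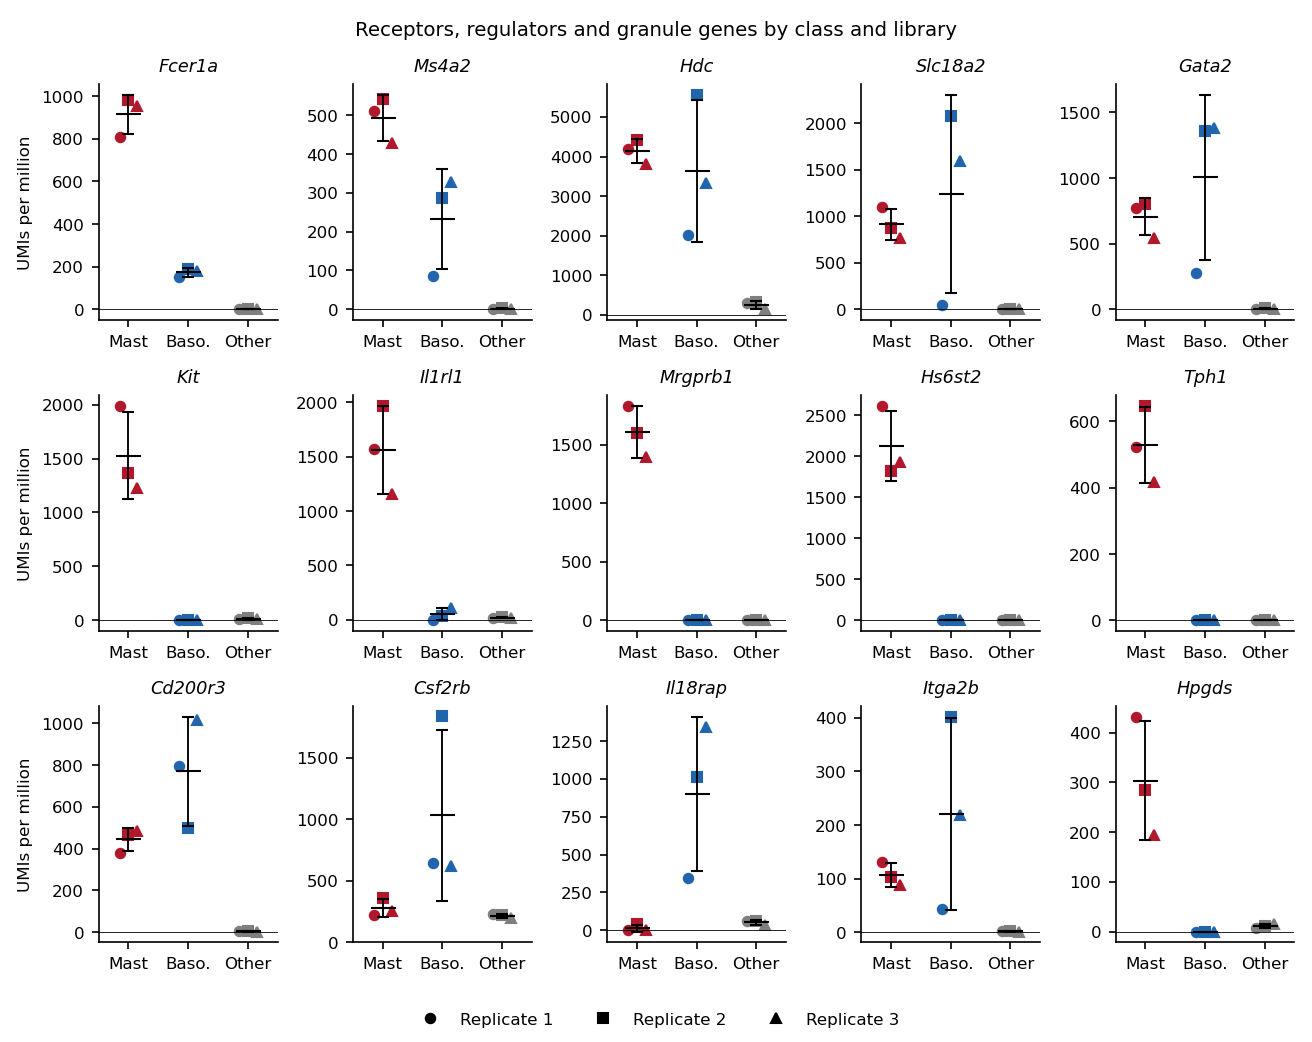
CPM of 15 genes in mast cells, basophils and other leukocytes, 1 symbol per library, with the mean and SD over the 3 libraries as bars. Fcer1a, Ms4a2, Hdc, Slc18a2 and Gata2 are above other leukocytes in both classes, Kit, Mrgprb1, Hs6st2, Tph1 and Hpgds lie at 0 in basophils, and the basophil values of Slc18a2 spread from 42.9 to 2084.

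Surface receptors differed between the classes. Kit, the receptor of stem cell factor, stood at 1988, 1369.9 and 1225 CPM in mast cells, was found in all 38, and had no UMI in the 10 basophils, at least 63.0-fold higher. Il1rl1 (ST2), the receptor of interleukin 33, stood at 1569, 1964 and 1157 in mast cells and 0, 38.2 and 109 in basophils (5.48 ± 0.68 log2, edgeR adjusted p = 0.00221), and was found in 38 of 38 mast cells and 4 of 10 basophils. Mrgprb1 and Mrgprb2, G-protein-coupled receptors of the Mas-related family, of which Mrgprb2 responds to basic secretagogues in mouse mast cells, had no UMI in basophils. Mrgprb1 stood at 1831, 1603 and 1391 and Mrgprb2 at 628, 375 and 321 in mast cells. Another member annotated as Mrgprx2 had 549, 336 and 321 in mast cells, and since these genes are close copies their separate levels are uncertain. The adenosine receptor Adora3 stood at 170.0, 310.2 and 253 in mast cells and at 0 in basophils, while Adora2b was found in 1 mast cell and 7 of 10 basophils.

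Basophils stood above mast cells in both chains of the interleukin 18 receptor and in the beta chains that serve interleukin 3. The mean level of the interleukin 3 alpha chain was not higher in basophils. Il18rap and Il18r1, the chains of the interleukin 18 receptor, were both lower in mast cells. Il18rap stood at 0, 38.8 and 0 CPM in mast cells, against 343, 1013 and 1344 in basophils. Il18r1 stood at 52.3, 103 and 9.73 CPM in mast cells, against 408, 478 and 254 in basophils, and neither gene's groups overlapped. The log2 difference of mast cells from basophils was -6.03 ± 0.98 for Il18rap (edgeR adjusted p = 0.00386, lower in 3 of 3 libraries) and -2.68 ± 0.51 for Il18r1 (adjusted p = 0.00713). Csf2rb, the common beta chain of the receptors for interleukin 3, interleukin 5 and GM-CSF, stood at 222, 362 and 253 in mast cells and 644, 1835 and 617 in basophils (-1.60 ± 0.41 log2, adjusted p = 0.028), and without the 9 barcodes this call was lost (log2 difference -1.09, adjusted p = 0.158). Its mouse paralog Csf2rb2, which serves interleukin 3 alone, stood at 0, 77.5 and 38.9 in mast cells and 279, 554 and 291 in basophils, and reads of these near copies may have been shared. The interleukin 3 receptor alpha chain Il3ra averaged 68.2 ± 18.1 CPM in mast cells, 46.3 ± 15.7 in basophils and 34 ± 4.91 in other leukocytes (SD, n = 3) and was not tested with basophils.

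Several surface genes were found in both classes and hardly elsewhere. Cd200r3 stood at 379, 465 and 486 CPM in mast cells and 794, 497 and 1017 in basophils, against 3.78, 3.92 and 2.40 in other leukocytes. The integrin genes Itga2 and Itga2b (CD41) were not called between mast cells and basophils. Itga2 averaged 143 ± 59.7 CPM in mast cells, 79.6 ± 92.8 in basophils and 4.47 ± 0.409 in other leukocytes (SD, n = 3). Itga2b averaged 107 ± 21.9 CPM in mast cells, 221 ± 179 in basophils and 2.00 ± 0.325 in other leukocytes. The activation marker Cd69 stood at 319 ± 51.3 in mast cells, 690.3 ± 496 in basophils and 28.1 ± 6.58 in other leukocytes. The tetraspanin Cd63, which moves to the surface when granules fuse, averaged 871 ± 181 in mast cells, 943 ± 441 in basophils and 805 ± 137 in other leukocytes, with no call between mast cells and basophils (edgeR adjusted p = 0.836). Cd9, another tetraspanin, was lower in mast cells, with 275, 491 and 369.6 in mast cells and 1868, 2351 and 2869 in basophils (-2.45 ± 0.35 log2, edgeR adjusted p = 0.00255). It was found in 10 of 38 mast cells, with 37.1% of its UMIs in 1 cell, and without the 9 barcodes the difference was -6.60 log2. Basophils were not called against other leukocytes for Cd9 (0.79 ± 0.32 log2, edgeR adjusted p = 0.138). Ifitm1, an interferon-induced membrane protein, was found in all 10 basophils and in 3 of 38 mast cells, at 0, 90.5 and 0 CPM in mast cells and 644, 3249.6 and 6719 in basophils. Over the list of receptors, 5 of 19 tested genes were higher in mast cells than in basophils and 7 lower, against 10.7% and 7.48% of all genes tested, and the median was -0.75 log2 against 0.09. Kit, Adora3, Mrgprb1 and Mrgprb2 had no UMI in basophils and could only be called higher, so these counts are a description.

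Among transcription factors, Gata2 was shared and Meis2 and Tal1 were not. Gata2, needed for both lineages in mice, stood at 772, 801 and 545 CPM in mast cells and 279, 1357 and 1380.1 in basophils, against 3.91, 7.47 and 1.08 in other leukocytes, with a mast cell to basophil difference of -0.24 ± 0.69 log2 (edgeR adjusted p = 0.848). Meis2, a homeobox gene, stood at 902, 452 and 681 in mast cells and had no UMI in basophils, at least 28.6-fold higher. Tal1, a partner of GATA factors, stood at 209, 155 and 165 in mast cells and 21.5, 19.1 and 0 in basophils (3.77 ± 0.63 log2, adjusted p = 0.00436). Nfil3 and Runx2 were lower in mast cells. Nfil3 stood at 0, 64.6 and 9.73 in mast cells and 343, 478 and 472 in basophils (-4.01 ± 0.70 log2, edgeR adjusted p = 0.00501). Runx2 stood at 65.4, 51.7 and 9.73 in mast cells and 343, 554 and 508 in basophils (-3.34 ± 0.57 log2, adjusted p = 0.00467). Mitf, a regulator of mast cell genes, stood at 615, 607 and 574 in mast cells and 687, 210.3 and 0 in basophils, where the 2 barcodes with markers of another class held all 43 UMIs, and at 547, 438 and 618 in other leukocytes. The mast cell to basophil difference was not called (edgeR adjusted p = 0.234). Without the 9 barcodes it was called, with the same direction and basophils at 0 UMIs. Runx1 (475 ± 61.3 in mast cells, 2067 ± 1508 in basophils; SD, n = 3) was not called either. Gata1 had 3 UMIs in mast cells and 1 in basophils. The list of transcription factors had 2 of 13 tested genes higher in mast cells than in basophils and 2 lower, counts near the 10.7% and 7.48% over all genes tested.

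The cytokine genes differed as well. Mast cells had the monocyte-attracting chemokines Ccl2 and Ccl7 and the inflammatory cytokine Tnf, and basophils had Ccl3, Ccl4, Il6, Csf1 and Osm. Ccl2 stood at 3596, 2714 and 2927 CPM in mast cells and 0, 19.1 and 0 in basophils, which held 1 UMI between them, against 99.3, 49.9 and 53.6 in other leukocytes. Ccl7 stood at 1412, 3670.3 and 1935 in mast cells and 0, 38.2 and 36.3 in basophils, against 27.8, 31.6 and 34 in other leukocytes. No library of either class overlapped with the other for these genes, and 36 of 38 mast cells had at least 1 UMI of them. Mast cells were higher than basophils by 8.85 ± 0.69 log2 for Ccl2 and 6.81 ± 0.63 for Ccl7 (edgeR adjusted p = 9.49e-04 for both), and higher than other leukocytes by 5.22 ± 0.33 log2 for Ccl2 (adjusted p = 0.00564) and 6.03 ± 0.45 for Ccl7 (adjusted p = 0.00797). Fibroblasts also had Ccl2, at 365 ± 122 CPM. Tnf stood at 327, 452 and 243 in mast cells and 0, 57.3 and 0 in basophils, where 1 cell held its 3 UMIs (4.15 ± 0.74 log2, edgeR adjusted p = 0.00521).

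Ccl3 and Ccl4, inflammatory chemokines that attract leukocytes, were found in all 10 basophils. Ccl3 stood at 13.1, 77.5 and 38.9 CPM in mast cells, against 3220.3, 7111 and 12639 in basophils (-7.27 ± 0.76 log2, edgeR adjusted p = 0.00116; lower in mast cells of 3 of 3 libraries). Ccl4 stood at 0, 582 and 311 in mast cells and 4830.4, 15789 and 18087 in basophils (-5.48 ± 1.03 log2, adjusted p = 0.00668), and at 389, 439 and 192 in other leukocytes. Of the 9 mast cells with a UMI of Ccl4, 3 held 57 of the 77 UMIs (25, 22 and 10). The basophil values are lowest in replicate 1 for both genes. In that library the barcode with macrophage genes supplied most UMIs, and its part in these values was not tested. Without it, the other basophil of replicate 1 had Ccl4 at 6817 CPM.

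Il6, known for its part in muscle growth and inflammation, stood at 0, 77.5 and 19.5 CPM in mast cells, against 537, 3766 and 2760.2 in basophils and 23.1, 40.2 and 14.7 in other leukocytes. The log2 difference of mast cells from basophils was -6.04 ± 0.81 (edgeR adjusted p = 0.00238), and basophils were higher than other leukocytes by 6.21 ± 0.73 (adjusted p = 0.00104). Fibroblasts had 201 ± 46.4 CPM (SD, n = 3). In basophils, 45.3% of the Il6 UMIs came from 1 cell of replicate 2 that also carried dendritic cell genes, and 9 of 10 basophils had at least 1 UMI. Csf1, the macrophage growth factor, stood at 26.2, 207 and 136 in mast cells and 988, 2829 and 2361 in basophils, a difference of -3.89 ± 0.60 log2 (adjusted p = 0.00345). All basophils had it, against 10 of 38 mast cells. Oncostatin M (Osm) stood at 78.5, 64.6 and 87.5 in mast cells and 301, 1338 and 363 in basophils (-2.75 ± 0.64 log2, adjusted p = 0.0182).

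The type 2 cytokines Il4 and Il13 had few UMIs and did not pass the expression filter of the fit with basophils. Il4 was found in 20 of 38 mast cells and 7 of 10 basophils, at 222, 116 and 97.3 CPM in mast cells and 42.9, 707 and 36.3 in basophils, so the ranges overlap and the basophil value of replicate 2 stands above the rest. Il13 was found in 5 mast cells and 5 basophils, at 39.2, 103 and 9.73 CPM in mast cells and 258, 612 and 0 in basophils, and 7 of 10 basophils had Il4 or Il13. Other leukocytes had 1.23 ± 1.12 CPM of Il4 and 0.486 ± 0.241 of Il13 (SD, n = 3). Mast cells against other leukocytes missed the threshold for Il4 (edgeR adjusted p = 0.0557) and for Il13 (adjusted p = 0.101). Il5, Il3, Il9, Il2, Areg and Tnfsf11 had no UMI in either class, where 0 UMIs allow up to 11.7 CPM in mast cells and 23.7 in basophils. Over the cytokine list, 3 of 15 tested genes were higher in mast cells than in basophils and 7 lower (Csf1, Il6, Osm, Ccl3, Ccl4, Ccl6 and Ccl9), against 10.7% and 7.48% of all genes tested, with a median of -2.75 log2 against 0.09.

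**Figure D4:**
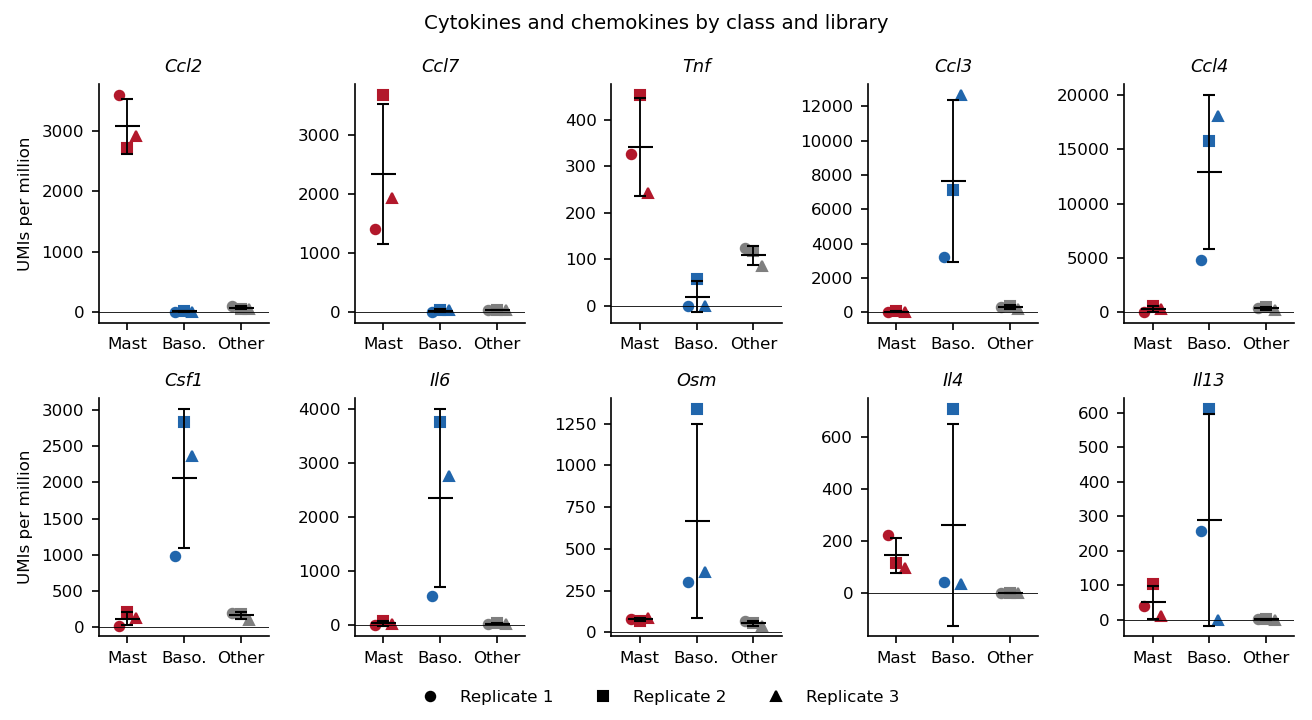
CPM of 10 cytokine and chemokine genes in mast cells, basophils and other leukocytes, 1 symbol per library, with mean and SD over the 3 libraries. Ccl2, Ccl7 and Tnf are above basophils in every mast cell library, Ccl3, Ccl4, Csf1, Il6 and Osm are above mast cells in every basophil library, and Il4 and Il13 overlap.

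Enzymes for lipid mediators divided as well. Hpgds, the synthase of prostaglandin D2, a product mast cells are known for, stood at 432, 284 and 195 CPM in mast cells and had no UMI in basophils, at least 12.3-fold higher, beside 8.05, 10.5 and 14.5 in other leukocytes. Alox5, which starts leukotriene synthesis, stood at 222, 168 and 243 in mast cells and 85.9, 38.2 and 109 in basophils (1.76 ± 0.49 log2, edgeR adjusted p = 0.0398). Basophils held 9 UMIs of Alox5, and its call was lost whichever library was left out (edgeR adjusted p from 0.0828 to 0.226). The partner of Alox5, Alox5ap, ran the other way, at 144, 181 and 204 in mast cells and 644, 669 and 1525 in basophils (-2.15 ± 0.38 log2, edgeR adjusted p = 0.00521). Ptgs2, the inducible cyclooxygenase, had UMIs in 1 of 38 mast cells and 9 of 10 basophils, at 0, 103 and 0 CPM in mast cells and 236, 1892 and 1743 in basophils (-5.17 ± 1.07 log2, edgeR adjusted p = 0.0108). Leukotriene C4 synthase (Ltc4s) had 1 UMI in mast cells and none in basophils, and the prostaglandin D2 receptor gene Ptgdr2 had none in either.

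Outside the lists, the genes furthest from basophils on the mast cell side were Mctp1, Tiam2, Sgcd and Lsamp, beside Mcpt4, Tpsb2, Hs6st2, Mrgprb1, Kit and Rab27b given above. Mctp1, which encodes a calcium-binding membrane protein, stood at 1831, 1835 and 1255 CPM in mast cells and at 0 in basophils, but at 209, 248 and 195 in other leukocytes, so basophils were also lower than other leukocytes (at least 8.97-fold). Tiam2, an exchange factor for the GTPase Rac, stood at 1203, 1732 and 1099 in mast cells, at 0 in basophils and at 9.81, 13.5 and 7.87 in other leukocytes. Sgcd, a sarcoglycan better known from the muscle membrane, was found in 19 of 38 mast cells at 1268, 607 and 1537, and Lsamp, a cell adhesion protein known from neurons, in 25 at 1190.0, 853 and 836. Neither had a UMI in basophils. The furthest genes on the basophil side were Aqp9, Hip1r, Klf5, Ccl3, Ifitm1, Skap1, Il6, Il18rap, Adora2b and the non-coding RNA Mirt1. Aqp9, a channel for water and glycerol, had no UMI in mast cells and stood at 258, 707 and 1344 in basophils, at least 58.2-fold lower in mast cells. Hip1r and the transcription factor Klf5 were likewise at 0 in mast cells, while basophils had 322, 268 and 291 CPM of Hip1r and 172, 210.3 and 436 of Klf5.

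Against other leukocytes, the genes furthest above in mast cells were Prss34, Mcpt4, Tpsb2, Mrgprx2, Tpsab1, Mrgprb1, Mrgprb2, Tph1, Hs6st2 and Tpsg1. Those furthest below were Igkc, Cd83, Retnlg, Plac8, Ms4a6c, Pf4, Ccl9, Kctd12, Lsp1 and Cxcr4, genes of B cells, dendritic cells, neutrophils, monocytes and platelets or of leukocytes at large. Igkc, an antibody light chain, had 1 UMI in mast cells, and its UMIs in other leukocytes differed between replicates 1, 2 and 3 (261, 33499 and 28899). In basophils, the genes furthest above other leukocytes were Slc18a2, Cyp11a1, Fcer1a, Ms4a2, Gata2, Cd200r3, Slc24a3, Hs3st1, Gna14 and Itga2b. Cyp11a1, the enzyme that turns cholesterol into pregnenolone in steroid-making cells, stood at 196, 504 and 292 CPM in mast cells and 558, 1185 and 2143 in basophils, against 4.09, 8.21 and 0.879 in other leukocytes. Basophils were higher than other leukocytes by 8.27 ± 0.91 log2 (edgeR adjusted p = 0.001) and mast cells by 5.56 ± 0.36 (adjusted p = 0.00583), comparisons that share the other leukocytes. The potassium-dependent sodium and calcium exchanger Slc24a3 stood at 623 ± 189 in mast cells and 915 ± 366 in basophils, and the heparan 3-O-sulfotransferase Hs3st1 at 206 ± 60.1 in mast cells and 417 ± 213 in basophils (SD, n = 3). Those furthest below in basophils were Slpi, Gpnmb, Mctp1, Fmnl2, Pcdh7, Maf, Pstpip2, Dnm3, Dip2c and Usp37, all at 0 UMIs in basophils, where 3 counts would be 23.7 CPM. Maf, a transcription factor of macrophages, averaged 145 ± 9.37 CPM in other leukocytes (SD, n = 3).

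Immediate early genes, which rise within minutes in tissue and also during enzymatic dissociation, were high in mast cells, and some in basophils also. Fos averaged 4899 ± 904 CPM in mast cells, 431 ± 427 in basophils and 859 ± 111 in other leukocytes (SD, n = 3). Jun averaged 5645 ± 719 in mast cells, 1372 ± 968 in basophils and 297 ± 14.8 in other leukocytes. Of 12 genes of the list tested, 5 were higher in mast cells than in other leukocytes and 1 lower (Atf3), against 1.08% and 0.376% of all genes tested, with a median of 1.02 log2 against -0.91. Between the classes, Jun, Fos and Dusp1 were higher in mast cells and Ier3 lower, of 10 tested, against 10.7% and 7.48% of all genes tested. The call for Dusp1 was lost without the 9 barcodes (log2 difference 0.57, edgeR adjusted p = 0.447). Basophils had 3 of 10 tested genes higher than other leukocytes (Ier2, Ier3 and Egr1) and none lower, against 8.88% and 4.79% of all genes. Egr1 was higher by 3.10 ± 0.67 log2 (edgeR adjusted p = 0.0173) and Ier3 by 2.95 ± 0.30 (adjusted p = 8.77e-04). The heat shock genes Hspa1a and Hspa1b were not called. Hspa1a averaged 35.6 ± 34.1 CPM in mast cells and 95.1 ± 30.6 in other leukocytes, and Hspa1b 38.9 ± 34.3 in mast cells and 133 ± 45.3 in other leukocytes. Fos and Jun were higher in mast cells than in basophils, as Ccl2 and Ccl7 were, and their part in those levels was not tested. Ccl3 and Ccl4 were higher in basophils, as Ier3 was, and its part in their levels was not tested either. Proliferation genes were near 0. Mki67 had UMIs in 1 mast cell and 3 basophils and Top2a in 2 mast cells and 2 basophils, while Pcna, also used in DNA repair, was found in 28 of 38 mast cells.

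Markers of T, NK, B cells and eosinophils were mostly at 0. Macrophage and dendritic cell markers had UMIs, and their sums in mast cells fell in every library without the barcodes of mixed markers. Those barcodes were picked for high sums of the same markers, Apoe aside, so a fall was set by that choice. Mast cells had no UMI of 7 of 8 T and NK markers, 6 of 7 eosinophil markers and 4 of 5 B cell markers, and basophils had none of 6 of 8 T and NK markers, 5 of 7 eosinophil markers and 4 of 5 B cell markers. The summed neutrophil markers stood at 52.3, 8465 and 77.8 CPM in the mast cells of replicates 1, 2 and 3, and at 49.1, 64.4 and 32.3 without the barcodes of mixed markers. Summed macrophage markers other than the C1q genes, with Apoe among them, stood at 4812, 2520 and 4707 in mast cells and at 2572, 1181 and 2506 without those barcodes. In basophils they stood at 19515, 650 and 327 and at 957, 250 and 327 without those barcodes, against 15828, 12614 and 17207 in other leukocytes. Summed dendritic cell markers in mast cells were 1543, 814 and 1906 with them and 16.4, 0 and 32.3 without. In basophils they were 7707, 4760 and 0 with them and 0, 178 and 0 without, and the counts of calls without these barcodes stand above. Of these macrophage markers, Mrc1 had no UMI in mast cells, and Trem2 was found in 2 of 38. Cd68 and Adgre1 were found in 5 each, Mmp12 in 10 and Lyz2 in 13. Apoe, the lipid carrier apolipoprotein E, was an exception. It was found in 38 of 38 mast cells at 2380.0, 1460.4 and 1896 CPM, against 21.5, 95.6 and 109 in basophils and 2609, 1929 and 2966 in other leukocytes, and mast cells were higher than basophils by 4.89 ± 0.55 log2 (edgeR adjusted p = 0.0014).

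Ligands of these receptors were looked up in fibroblasts and leukocytes. Kitl, stem cell factor, stood at 67.6 ± 11.4 CPM in fibroblasts (barcodes with at least 3 UMIs of Pdgfra, n = 3 libraries) and 13.9 ± 1.2 in other leukocytes, while mast cells had 2 UMIs in 1 cell and basophils 3 in 2 cells. Il33 stood at 275 ± 41.9 in fibroblasts and 5.32 ± 3.51 in other leukocytes, and neither mast cells nor basophils had a UMI. Tslp, another cytokine that acts on basophils, had 3.83 ± 0.292 CPM in fibroblasts.

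Among the 38 mast cells, 1 stood apart in lacking both Mcpt4 and Tpsb2. A mast cell by the rule in replicate 2, with 2389 UMIs, had 7 UMIs of Cpa3, 6 of Cma1 and 16 of Mcpt8, none of Mcpt4, Tpsb2 or Mrgprb1, and 3 of Kit, 7 of Hs6st2 and 10 of Ccl4. It was the mast cell with no Mcpt4. The share of a cell's UMIs in Cpa3, Cma1, Mcpt4 and Tpsb2 together ran from 0.544% to 15.5% over the 38 mast cells, with a median of 6.26%, against at most 0.059% in basophils. The rule read Cpa3 and Cma1, so the gap between the classes is in part set by it and is a description. By library the same share was 6.78%, 5.77% and 7.94% of mast cell UMIs.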

How the data were processed

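Droplet RNA libraries were made from 3 suspensions of treated quadriceps. The deposited matrices hold UMI counts per gene and barcode, whole numbers without normalization. Per the file headers, Cell Ranger 7.0.0 wrote them; Cell Ranger 6.1.2 stands in the submitters' processing notes. Genome build, annotation and intron handling: not given in the sources used here. The libraries hold 6068, 8643 and 4996 barcodes and 136519688, 192348779 and 104482261 UMIs. Counts at the 3′ end were not divided by gene length. The members and gene lists were chosen with earlier results of these data known.

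Raw counts were summed per class and library and tested with edgeR 4.0.16 (R 4.3.3): filterByExpr, TMM scaling, library as a block, quasi-likelihood test, Benjamini-Hochberg adjustment, with at least 10 cells per class and library. The fit of all 3 libraries (at least 2 cells) was added after the data had been seen. SEs are the log2 difference over the square root of F. Residual degrees of freedom were 1 and 4. Fitted differences against a class at 0 UMIs depend on the prior count, so folds there use 3 counts over the group. TMM factors over all class sums ran from 0.694 to 3.84, so levels are UMIs for every 1000000 of the class total (CPM), in departure from the planned TMM sizes. Genes named are those of the lists and, per comparison, the 10 called genes furthest on either side with at least 20 CPM and the same direction in every library, leaving out the rule's genes, Ptprc and predicted genes. The genes of the chymase row were added for their position after the data had been seen. Shares of cells were also taken after thinning to 1500 UMIs. No doublet caller was used beyond the rule; Scrublet removal, DESeq2 1.42.0, RLE scaling, no filter, no block, leave-one-out and stricter thresholds were alternatives. Fits were tested on simulated data. Intervals and floors cover counting error only. Promoter sequences are from RefSeq.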

Additional observations from a re-analysis of the deposited data

How the results depend on the processing

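Counts of called genes moved with the processing more than directions did, and no named call changed sign under any alternative that was run. For mast cells against other leukocytes, counts of genes higher and lower were 423 and 146 with DESeq2, 591 and 915 with no replicate block, 67 and 2 at a mitochondrial share under 10%, 339 and 658 after Scrublet removal, 653 and 1256 with a minimum of 5 cells, 399 and 1055 without barcodes of another class's markers, and 304 and 195 in the fit of all 3 libraries. The lower count was also 6 with RLE size factors, 86 with no filter and 104 with stricter UMI thresholds. Without replicate 3 it was 99 and 6. Leaving out replicate 1 or 2 left 1 mast cell library and no residual degrees of freedom, so it could not be fitted, and no basophil contrast could be fitted at minimums of 10 or 5 cells. For mast cells against basophils, 302 were higher with no filter, and 112 were higher and 79 lower with only the 2 classes in the fit; leave-one-out counts ran from 13 to 169 higher and from 2 to 142 lower, both lowest without replicate 2. For basophils against other leukocytes, stricter UMI thresholds gave 63 and 36, and leave-one-out counts ran from 24 to 251 higher and from 3 to 191 lower. Its lower count was 161 with DESeq2, 453 with no filter, 206 with only the 2 classes, 153 with no replicate block and 413 without barcodes of another class's markers. The share of members was 0.208% with stricter UMI thresholds and 0.232% without those barcodes, and ran from 0.269% to 0.287% when a library was left out. Of the calls of named genes, 56 of 67 between mast cells and basophils and 43 of 57 between basophils and other leukocytes missed the threshold without replicate 2, and 31 of 62 between mast cells and other leukocytes at a mitochondrial share under 10%. Where not shown by fewer cells or libraries, the cause was not tested. No pairing across groups exists, since the labels give 1 group; the block is the library that the class sums share. With 126429 UMIs in 10 basophils, 0 UMIs of a gene allow up to 23.7 CPM.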
